A study of Mus musculus with 17 samples.

Results

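Ovaries carrying the Fshr alteration called Fshr-CAM were compared with wild type ovaries while the LH receptor gene Lhr was intact. The comparison rests on the 8 arrays whose titles name these genotypes, 4 per genotype, of 17 arrays in the study, and on all 11401 genes detected in them, of 19057 named genes on the array. The remaining arrays were Lhr-null and Fshr-CAM/Lhr-null ovaries, and they enter below as a shared estimate of spread and as the same comparison in the absence of Lhr. Every sample was ovary RNA of female mice aged 12 weeks from a cross of FVB/N and C57/BL6. The wild type mice carried neither alteration, Fshr-CAM mice carried the Fshr alteration with normal Lhr, and no treatment is named for any group. The labels name no construct, promoter or line number for Fshr-CAM. In published work the abbreviation stands for a constitutively activating mutation of the FSH receptor, which is taken here as background. Whether the samples are of different animals is not stated in the labels, and p-values here measure the spread between samples, which may be technical.

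FSH, a pituitary hormone, acts through Fshr on the granulosa cells that surround the oocyte. The receptor couples to Gs, raises cyclic AMP and activates protein kinase A, and the kinase phosphorylates CREB, which binds cyclic AMP response elements in DNA. Granulosa cells under FSH divide, make inhibins and activins and convert androgen from theca cells to oestradiol. LH then acts through Lhr on theca and mature granulosa cells to trigger ovulation and to turn the follicle into a corpus luteum, which makes progesterone from cholesterol.

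RNA was measured as the brightness of beads on Illumina MouseWG-6 v2 arrays. Values are log2 signals after background correction and quantile normalisation, so a difference of 1 is a doubling, and differences are written as Fshr-CAM minus wild type. A level of one gene cannot be set against that of another. On the 8 arrays, 20882 to 21603 of 45281 probes were detected, and the median probe was read from 41 to 43 beads. Across genes, arrays correlated at 0.964 to 0.984 within wild type, 0.955 to 0.984 within Fshr-CAM and 0.953 to 0.982 between the genotypes, and precision is limited by having 4 arrays per genotype. Markers of granulosa cells (17 of 18 on the array), theca cells (12 of 13), oocytes (21 of 22) and the corpus luteum (13 of 13) were detected. Of 8 pituitary markers on the array, none was detected on enough arrays to be kept. The sperm protamine gene Prm1 stood at 8.74 and 7.71 on wild type replicates 3 and 4 and at 7.99 on Fshr-CAM replicate 4, and at 4.57 to 5.10 on the other 5 arrays. Of 8 spermatid markers on the array, 3 were kept, with a list mean of 5.24 to 7.07 in wild type and 4.63 to 6.82 in Fshr-CAM.

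Relative to wild type, 21 genes rose and 4 fell in Fshr-CAM ovaries. The genes with the largest rises, in order of size, were the homeobox gene Rhox8, known from the somatic cells of gonads, Fshr itself, Cracd, Fam162b and Inhba, which encodes the beta A subunit shared by activin A and inhibin A. The largest fall was of Adcyap1, which encodes the neuropeptide PACAP. These 25 genes are 0.219% of the 11401 tested (0.184% rose, 0.0351% fell; limma, Benjamini-Hochberg adjusted p under 0.05), and 19 of them differed by over 2-fold. At an unadjusted p under 0.05 there were 390 higher genes (3.42%) and 329 lower genes (2.89%), together 6.31%. The median change of all genes was 0.002. In all 25 genes the 4 arrays of one genotype lay apart from the 4 of the other, which held for 3.55% of all genes (2.11% higher and 1.44% lower in Fshr-CAM). Selection by a small p on the same arrays favours such a gap, so it is not separate support. The number of calls depends on the arrays in the fit. With only the 8 arrays compared, 5 genes rose (Fshr, Rhox8, Inhba, Enc1 and Ddit4) and 0 fell in limma, with 640 at an unadjusted p under 0.05, and with all 17 arrays 3 rose (Cracd, Enc1 and Ddit4) and 3 fell (Adcyap1, Atp12a and Pcsk5). Without the 3 arrays of high Prm1, a fit added after the data were seen, 4 rose and 3 fell, among them Fshr, Inhba, Lgr6, Enc1 and Pcsk5 of the 25. Among 22 alternative fits, those on the authors' quantile-normalised values and on the series matrix use identical values, and all 25 genes passed in both. Over the 22, Enc1 passed in 22, Ddit4, Fshr and Inhba in 21, and Cracd, Lgr6 and Rhox8 in 20. At the other end Atp4b passed in 14, Gata6 and Ppp1r15a in 12, and Slc26a7 and Tmem200a in 11; the remaining 13 genes passed in 15 to 19 of the fits that tested them. In bulk tissue, a higher level from more cells of a type cannot be told apart from more RNA per cell.

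**Figure D1:**
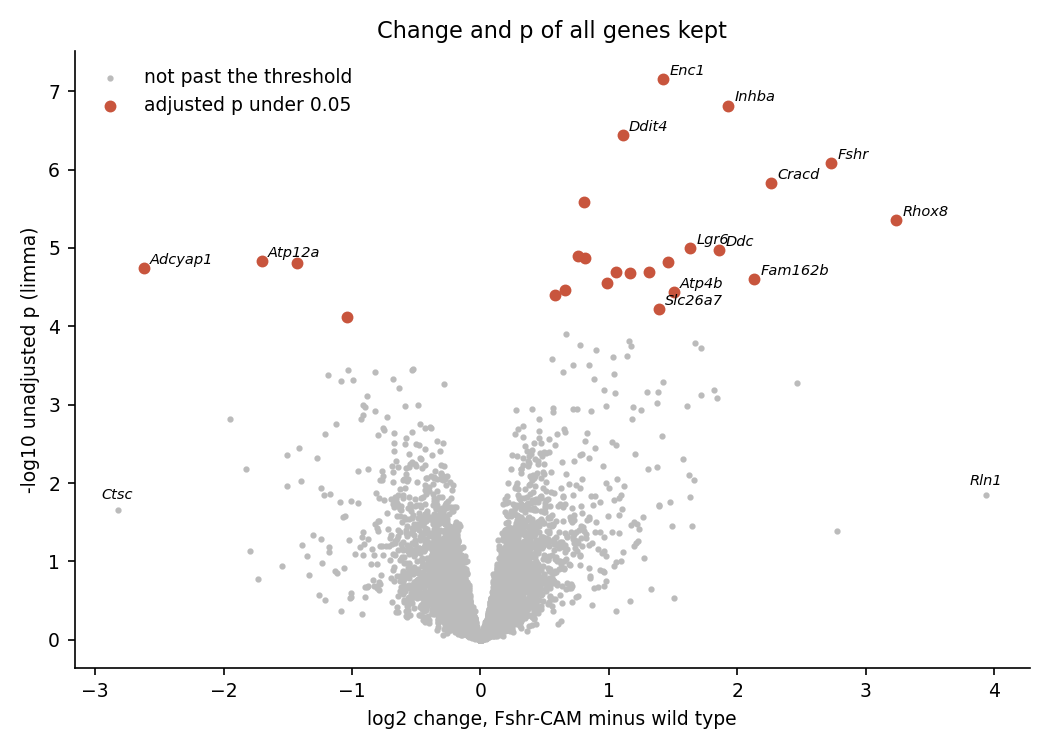
Each point is 1 of the 11401 genes, with the log2 change (Fshr-CAM minus wild type) on the x axis and −log10 of the unadjusted limma p on the y axis. The 25 genes past an adjusted p of 0.05 are red, 21 to the right and 4 to the left; Rln1 and Ctsc have the largest changes of either sign and are not among them.

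Fshr was measured by 3 probes, and they did not move alike. At probe ILMN_1228881, the brightest on average, the wild type arrays read 8.66, 8.35, 9.16 and 8.98 and the Fshr-CAM arrays 11.59, 11.48, 11.88 and 11.12. The lowest Fshr-CAM array was above the highest wild type array by a wide margin, and the change was 2.73 ± 0.35 (SE; n = 4 and 4, limma adjusted p = 0.00237), or 6.64-fold. Probe ILMN_2736929 rose by 2.09 ± 0.35 in the fit over 18028 probes (limma adjusted p = 0.0184), from 5.34 ± 0.38 to 7.42 ± 0.23 (SD, n = 4 each). Probe ILMN_2932141 read 9.02 ± 0.39 in wild type and 9.13 ± 0.35 in Fshr-CAM, with a change of 0.11 ± 0.23 (limma adjusted p = 0.999). Where in the transcript each probe lies was not analysed here. Fshr is the gene that the genotype alters, so its level is given first, though the labels do not say that its RNA should rise. It is a member of 2 of the gene lists below.

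**Figure D2:**
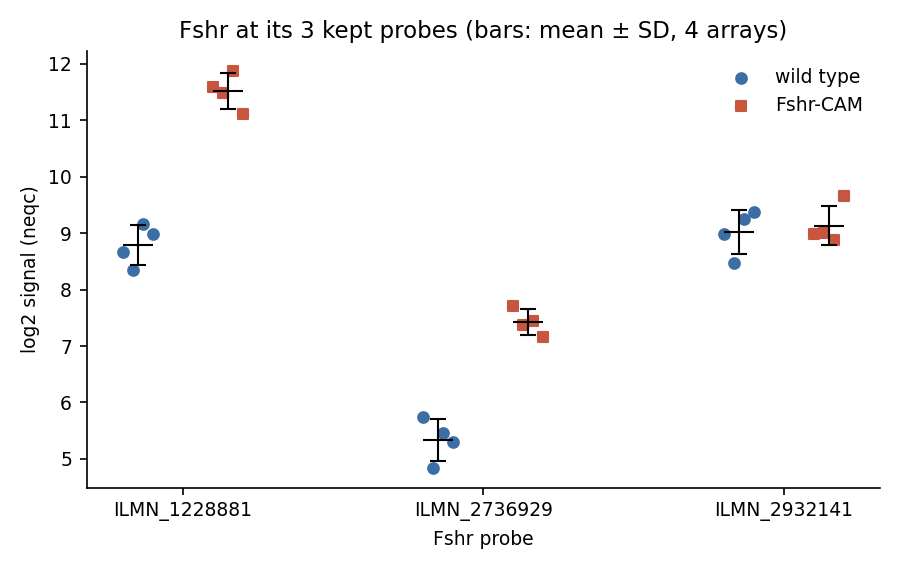
Log2 signal of Fshr at each of its 3 kept probes, with 1 point per array (circles, wild type; squares, Fshr-CAM) and bars for mean ± SD over 4 arrays. The genotypes are apart at ILMN_1228881 and ILMN_2736929 and overlap at ILMN_2932141.

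The other genes of the FSH receptor pathway did not pass. Of 19 kept genes for the receptor, Gs, adenylyl cyclases, phosphodiesterases, protein kinase A and arrestins, 1 rose (Fshr, the altered gene itself) and 0 fell in limma. The median change was 0.04, and 3 were higher and 1 lower at an unadjusted p under 0.05. Over all genes 0.184% rose and 0.0351% fell, and 3.42% were higher and 2.89% lower at that unadjusted p. Prkar2b, the RII beta regulatory subunit of protein kinase A, read 12.58, 12.43, 11.09 and 12.52 in wild type and 13.79, 12.68, 13.93 and 13.04 in Fshr-CAM. Its arrays did not overlap, and its change of 1.20 ± 0.36 had an adjusted p of 0.361 in limma. Gnas, which encodes the Gs alpha subunit, changed by −0.02, and Creb1 by 0.13. Among 17 kept genes of the cyclic AMP and immediate early response, 0 passed in limma (median 0.17, 1 higher and 0 lower at an unadjusted p under 0.05). Jund, a member of the AP-1 factors, had the smallest p of these, at 0.42 ± 0.14 with an adjusted p of 0.468.

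Both subunits of inhibin that were measured rose. Inhba read 11.54, 11.51, 11.81 and 11.91 in wild type and 14.06, 13.07, 13.80 and 13.56 in Fshr-CAM, a 3.81-fold rise (1.93 ± 0.21, limma adjusted p = 0.000866). Inha, the alpha subunit that turns the beta subunits into inhibin, read 12.94, 12.64, 13.14 and 12.84 in wild type and 13.65, 13.61, 14.01 and 13.56 in Fshr-CAM. No array of either gene crossed to the range of the other genotype, and the rise of Inha was smaller (0.82 ± 0.13, 1.76-fold, limma adjusted p = 0.0128). Fst encodes follistatin, the secreted protein that binds and blocks activin. It read 9.46 to 10.24 in wild type and 10.33 to 11.58 in Fshr-CAM, and its change of 1.17 ± 0.24 did not pass (limma adjusted p = 0.0675). Grem1, a secreted antagonist of bone morphogenetic proteins, read 4.96 to 6.66 in wild type and 7.27 to 8.19 in Fshr-CAM, and it did not pass either (1.71 ± 0.41, limma adjusted p = 0.148).

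Of the 26 kept genes of the inhibin, activin and TGF-beta family, 2 rose (Inhba and Inha) and 0 fell, beside 0.184% and 0.0351% of all genes. At an unadjusted p under 0.05, 7 were higher and 0 lower, beside 3.42% and 2.89% of all genes. The median was 0.21, beside 0.002 for all genes. The receptors Tgfbr1, Bmpr2 and Bmpr1b read 0.45, 0.35 and 0.56 higher and were among those 7, without passing. The mean over the list was 8.80 to 8.96 on wild type arrays and 9.08 to 9.31 on Fshr-CAM arrays. The oocyte ligands Gdf9 and Bmp15 changed by −0.39 and −0.34, and the granulosa cell hormone Amh by −0.35, none of which passed.

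Of 17 kept granulosa cell genes, 3 rose (Inhba, Inha and Fshr, the altered gene itself) and 0 fell, beside 0.184% and 0.0351% of all genes. At an unadjusted p under 0.05, 5 were higher and 1 lower, beside 3.42% and 2.89% of all genes. In this list 11 lay above 0 and 6 below, and the median was 0.25. In 4 members every Fshr-CAM array lay above every wild type array, which held for 2.11% of all genes. They were Fst and the 3 called genes, for which a small p favours such a gap. The list means overlapped, at 9.44 to 9.95 in wild type and 9.90 to 10.33 in Fshr-CAM. Fshr enters these counts, the median and the means, and as the altered gene it is not support for a change of the list. Members that did not pass ranged from Kctd14 at −1.23 to Fst at 1.17. Between them lay Nr1h4, a bile acid receptor, at −0.70, Foxl2, the factor that maintains granulosa identity, at 0.24, and Hsd17b1, which makes oestradiol from oestrone, at 0.47. Gata6, a transcription factor of granulosa and theca cells named after its values were seen, rose with the smallest spread of the 25. It read 10.97 to 11.19 in wild type and 11.55 to 11.74 in Fshr-CAM (0.58 ± 0.10, limma adjusted p = 0.0197). A dimmer Gata6 probe changed by 0.48 ± 0.19 and did not pass in the fit over probes (limma adjusted p = 0.728). With the mean of its probes, Gata6 changed by 0.53 and did not pass (limma adjusted p = 0.145). The list of genes known as oestrogen responses had 0 of 10 past the threshold in limma. Its nearest member was Greb1, an oestrogen receptor target, at 11.63 to 12.12 in wild type and 12.58 to 13.02 in Fshr-CAM (0.84 ± 0.18, adjusted p = 0.0961).

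Rhox genes form a cluster of reproductive homeobox genes on the X chromosome. Rhox8 read 6.34, 6.26, 5.82 and 5.66 in wild type and 10.20, 8.72, 9.47 and 8.63 in Fshr-CAM. This was the largest called change, 9.43-fold (3.24 ± 0.47, limma adjusted p = 0.0072). Rhox5 read 5.06 to 5.28 in wild type and 5.98 to 6.88 in Fshr-CAM (1.16 ± 0.19, limma adjusted p = 0.0131). Of 9 Rhox genes on the array 3 were kept, and Rhox1, Rhox6, Rhox9, Rhox10, Rhox11 and Rhox13 were detected on too few arrays. Rhox5 is also on the list of 9 kept Sertoli cell genes, the counterpart of granulosa cells in the testis, of which 1 rose, 0 fell and the median was −0.03. Over all genes 0.184% rose and 0.0351% fell.

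The other genes that rose had various known roles. Cracd, a regulator of actin filament capping, read 4.85 to 5.83 in wild type and 6.99 to 8.52 in Fshr-CAM (2.26 ± 0.30, limma adjusted p = 0.00341). Enc1, an actin-associated kelch protein, had the smallest p of all genes. It read 8.65, 9.40, 9.28 and 9.09 in wild type and 10.28, 10.50, 10.53 and 10.80 in Fshr-CAM (1.42 ± 0.15, limma adjusted p = 0.00079). Ddc, the decarboxylase that makes dopamine and serotonin, read 5.01 to 5.67 in wild type and 6.32 to 7.81 in Fshr-CAM (1.86 ± 0.29). Masp1, a protease of the lectin pathway of complement, read 9.77 to 9.96 and 10.76 to 11.83 (1.46 ± 0.24), with Fshr-CAM replicates 1 and 3 near 11.8 and replicates 2 and 4 near 10.8. Lgr6, a receptor for R-spondins, read 5.34 to 6.36 and 7.20 to 8.27 (1.63 ± 0.25). Fam162b (2.13 ± 0.36), the anion exchanger gene Slc26a7 (1.39 ± 0.25), Mcph1, which encodes microcephalin (1.32 ± 0.22), and Ccdc3, which encodes a secreted protein (1.05 ± 0.18), complete the genes that rose over 2-fold with those described above and below. Kcnh2, a potassium channel (0.99), Fat1, a large cadherin (0.80), and Ogn, a matrix proteoglycan (0.76), rose by less and were named after their values were seen.

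Ddit4 and Ppp1r15a, both known from cell stress, also rose. Ddit4 encodes an inhibitor of the growth kinase complex mTORC1, and read 9.14, 8.88, 8.84 and 8.92 in wild type and 9.88, 10.19, 9.99 and 10.15 in Fshr-CAM (1.11 ± 0.13, limma adjusted p = 0.00137). Ppp1r15a, also called GADD34, encodes a subunit of the phosphatase that restores translation after stress, and was named after its values were seen. It read 7.86 to 8.12 in wild type and 8.60 to 8.80 in Fshr-CAM (0.66 ± 0.12, limma adjusted p = 0.0186). Its call was lost with the replicate block (adjusted p = 0.0832), with median-centred signals (0.0809) and on leaving out 5 of the 8 arrays in turn. Ddit4 was the sole member to pass among 14 kept genes of PI3K, mTOR and energy stress (median −0.02). Over all genes 0.184% rose. Of heat shock and apoptosis genes, 0 of 11 and 0 of 12 passed in limma (medians 0.29 and 0.10). At an unadjusted p under 0.05 there were 0 and 1 of them, beside 6.31% of all genes. Proliferation genes gave no call either, 0 of 17 in limma, with 0 at an unadjusted p under 0.05, a median of 0.00 and a range of −0.26 to 0.23.

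**Figure D3:**
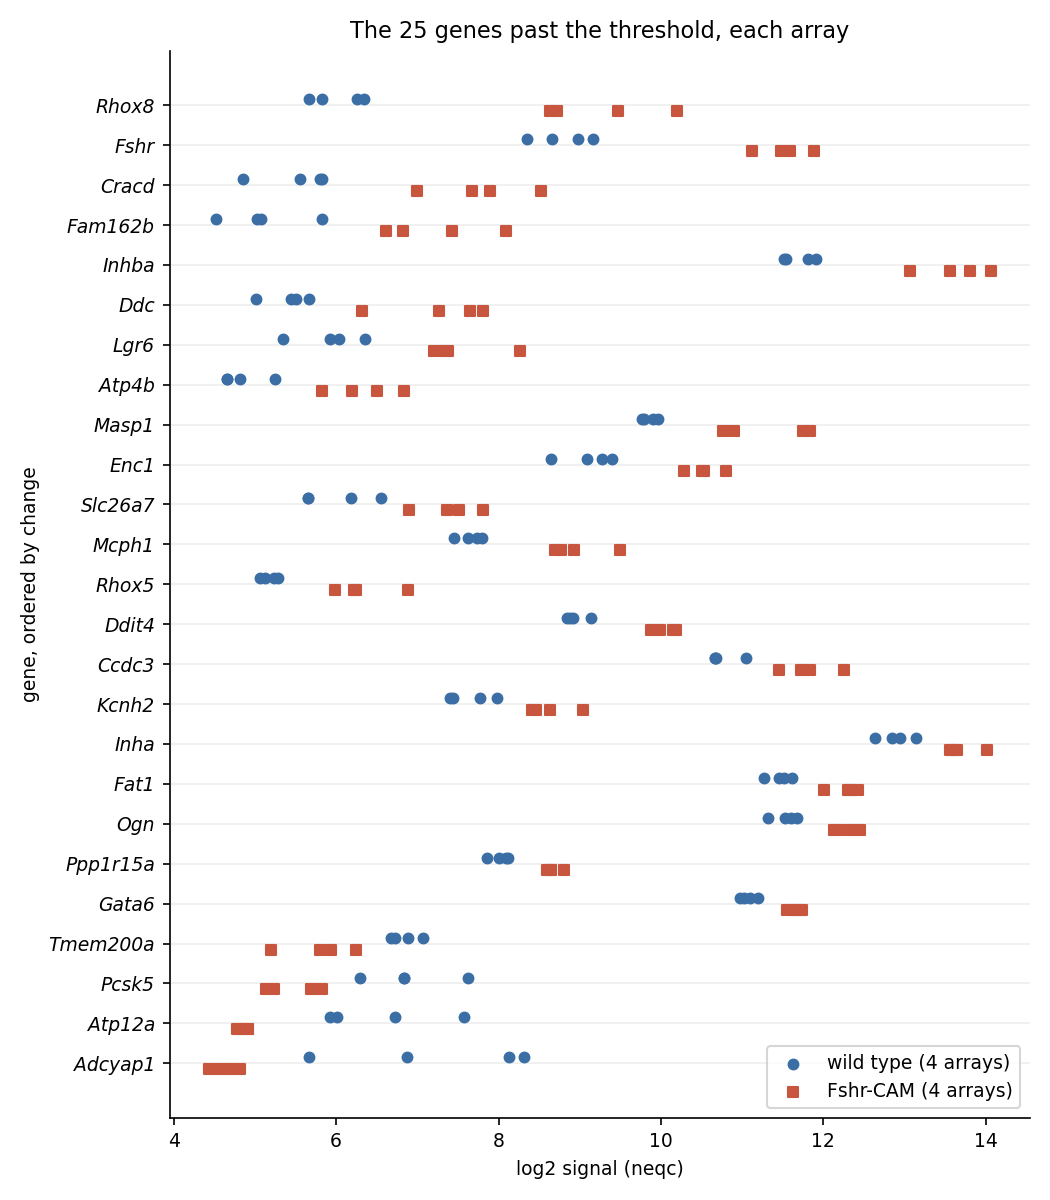
Log2 signal on each of the 8 arrays for the 25 genes past the threshold, ordered by change, with wild type arrays as blue circles and Fshr-CAM arrays as red squares. In each of the 25 genes the 4 red squares lie on one side of the 4 blue circles, to the right in 21 genes and to the left in 4. The genes were selected by p on these arrays, which favours such a gap.

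The 4 genes that fell include 2 near the background of the array in Fshr-CAM. Adcyap1 read 8.13, 6.87, 5.67 and 8.31 in wild type and 4.43, 4.82, 4.57 and 4.68 in Fshr-CAM. Its probe was not well above background on any Fshr-CAM array, so the fall is a bound of at least 4.91-fold, from the wild type mean to a floor at the lowest detected signal (limma −2.62 ± 0.43, adjusted p = 0.0131). The wild type arrays spread over more than 2 units, with replicate 3 the lowest. PACAP is known to be made in granulosa cells after the LH surge. Of the 8 kept genes of LH-responsive ovulation and cumulus expansion, Adcyap1 was the only one called, and the median was 0.03. Ereg, Has2, Ptgs2 and Pgr were among those not kept. Over all genes 0.0351% fell. Of 3 kept genes of the PACAP and VIP list, Adcyap1 fell. Ddc, which rose, was placed on that list but is the decarboxylase described above, and encodes neither of these peptides nor a receptor for them. The PACAP receptor gene Adcyap1r1 was not kept.

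Atp12a, the catalytic subunit of the non-gastric proton-potassium pump, read 7.58, 6.72, 6.01 and 5.93 in wild type and 4.78, 4.91, 4.92 and 4.83 in Fshr-CAM, where it was detected on 1 of 4 arrays (−1.70 ± 0.28, limma adjusted p = 0.0128). Both this value and that of Atp4b depend on the background level, since the dim genotype was mostly undetected. Atp4b, the beta subunit of the gastric proton-potassium pump, went the other way, and was detected on 1 of 4 wild type and 4 of 4 Fshr-CAM arrays (4.65 to 5.25 against 5.83 to 6.83; 1.50 ± 0.26, limma adjusted p = 0.019). Tmem200a, a membrane protein gene, read 6.67 to 7.07 in wild type and 5.20 to 6.25 in Fshr-CAM (−1.04 ± 0.20). Pcsk5, a convertase that cleaves secreted precursors and is on the luteal list, read 6.29 to 7.63 in wild type and 5.14 to 5.83 in Fshr-CAM (−1.43 ± 0.23, limma adjusted p = 0.0128). Its other probes read −0.33 ± 0.31 and 0.11 ± 0.18 and did not pass, and among the 11 called genes with more than 1 kept probe it was the only one whose probes differed in sign. A shared sign was not always a shared call. The dimmer probes of Masp1 (0.85 and 0.80) and Ogn (0.70 and 0.65) did not pass. For Mcph1, a probe at 0.24 did not pass and another at 1.29 did. The dimmer probes of Kcnh2 (1.00) and Lgr6 (1.53) passed. With the mean of a gene's probes, Pcsk5 changed by −0.55 and did not pass (limma adjusted p = 0.568).

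Below the threshold, the genes next in order of p that were lower on every Fshr-CAM array were Hint3, a nucleotide hydrolase (−0.53), Lpcat3, a phospholipid acyltransferase (−0.53), the Wnt ligand gene Wnt6 (−1.03), Tlcd1 (−0.68), Fdps, farnesyl diphosphate synthase of the cholesterol pathway (−1.08), Cst3, cystatin C (−0.28), Rnaseh2a (−0.63) and Urod, an enzyme of haem synthesis (−0.48). Their limma adjusted p ran from 0.103 to 0.18, and none is counted as a fall. Wnt6 read 8.59 to 9.19 in wild type and 7.23 to 8.14 in Fshr-CAM, and its change was 0.34 in the absence of Lhr.

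Cholesterol genes read lower together, though none passed. The 16 kept genes of cholesterol synthesis and uptake lay between −1.24 and −0.07, all below 0, with a median of −0.61 beside 0.002 for all genes. Of these, 0 passed in limma and 10 were lower at an unadjusted p under 0.05, a share that was 2.89% over all genes. The mean of the list was 9.48, 9.37, 9.81 and 8.51 on the wild type arrays and 8.92, 8.82, 8.38 and 8.46 on the Fshr-CAM arrays. Wild type replicate 4 therefore lay among the Fshr-CAM arrays, and without it the median was −0.89. For example Cyp51, a sterol demethylase, read 10.71, 10.53, 11.12 and 9.13 in wild type and 9.22, 9.58, 8.96 and 8.90 in Fshr-CAM (−1.21 ± 0.33, adjusted p = 0.266). Fdps read 13.96, 13.15, 13.94 and 12.92 against 12.48, 12.80, 12.35 and 12.00, and was the only member whose arrays did not overlap (−1.08 ± 0.25, adjusted p = 0.119). Srebf2, the transcription factor that turns this pathway on, changed by −0.07. In the related list of fatty acid synthesis and lipid storage 0 of 14 passed in limma, with a median of 0.01, 1 higher and 2 lower at an unadjusted p under 0.05; Scd1, a fatty acid desaturase, read 8.82 to 9.83 in wild type and 8.49 to 8.71 in Fshr-CAM (−0.77 ± 0.25, adjusted p = 0.444).

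Steroid synthesis itself showed no call. Of 11 kept genes 0 passed in limma, and the median was −0.05. At an unadjusted p under 0.05, 1 was higher and 2 lower, beside 3.42% and 2.89% of all genes. Of the 17 genes listed, 13 were on the array. Cyp19a1, the aromatase that turns androgen into oestrogen, had no probe under that name, so this step was not measured. Star, which carries cholesterol into the mitochondrion, read 10.18, 11.01, 10.29 and 9.75 in wild type and 9.51, 9.72, 9.74 and 7.97 in Fshr-CAM. Its arrays did not overlap by a margin of 0.01, and the change was −1.07 ± 0.44 (limma adjusted p = 0.682). Cyp17a1, the theca enzyme that makes androgen, ranged from 9.32 to 13.36 in wild type and from 11.80 to 14.06 in Fshr-CAM (1.64 ± 0.71, limma adjusted p = 0.722). The 12 kept theca and interstitial genes had a median of −0.10 and 0 calls in limma, with 1 higher and 1 lower at an unadjusted p under 0.05.

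The 13 corpus luteum genes had 1 call, the fall of Pcsk5, and 4 lower genes at an unadjusted p under 0.05, with a median of −0.38. Over all genes 0.0351% fell and 2.89% were lower at an unadjusted p under 0.05. Abcb1b, a membrane transporter, read 11.35, 12.60, 11.14 and 12.03 in wild type and 10.47, 11.13, 10.99 and 8.89 in Fshr-CAM (−1.41 ± 0.41, limma adjusted p = 0.335). Akr1c18, the luteal enzyme that breaks down progesterone, spread widely within each genotype, at 9.81 to 14.38 in wild type and 11.29 to 13.73 in Fshr-CAM (0.40 ± 0.86). Fshr-CAM replicate 4 held the lowest luteal list mean of the 8 arrays, at 8.87, beside 9.67 to 10.90 in wild type and 9.88 to 10.15 on the other Fshr-CAM arrays. The labels give no cycle stage for any mouse.

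The lists of other cell types held no call. Over all genes 0.184% rose and 0.0351% fell, and 3.42% were higher and 2.89% lower at an unadjusted p under 0.05. The 21 kept oocyte genes had 0 calls in limma (0 higher and 1 lower at an unadjusted p under 0.05) and a median of −0.34, which was 0.05 without Fshr-CAM replicate 1. The oocyte list mean of that array was 7.15, beside 8.22 to 8.84 on the other Fshr-CAM arrays and 8.11 to 8.76 in wild type. The 8 kept smooth muscle genes had a median of 0.39 and 0 calls in limma, with 4 higher at an unadjusted p under 0.05, beside 3.42% of all genes. Acta2, smooth muscle actin, was the member with the smallest p, at 13.69 to 13.99 in wild type and 14.05 to 14.49 in Fshr-CAM (0.40 ± 0.10, adjusted p = 0.18). Of 16 endothelial, 12 macrophage, 4 lymphocyte, 3 red blood cell, 9 surface epithelium, 8 oviduct and ciliated epithelium and 3 adipocyte genes, 0 passed in limma, with up to 3 genes per list at an unadjusted p under 0.05 and medians from −0.11 to 0.57. The 16 kept genes of the mitochondrial respiratory chain had a median of 0.00 and a range of −0.21 to 0.25, and the 14 of hypoxia and glycolysis a median of 0.03. Over the lists of D cyclins and CDK inhibitors (11 genes), the IGF system (12), Wnt (15), Notch (11), extracellular matrix (18), proteases and their inhibitors (16), prostaglandins (10) and the interferon response (7), the single call was Pcsk5 among the proteases. Their medians ran from −0.23 to 0.20, with up to 2 genes per list at an unadjusted p under 0.05.

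**Figure D4:**
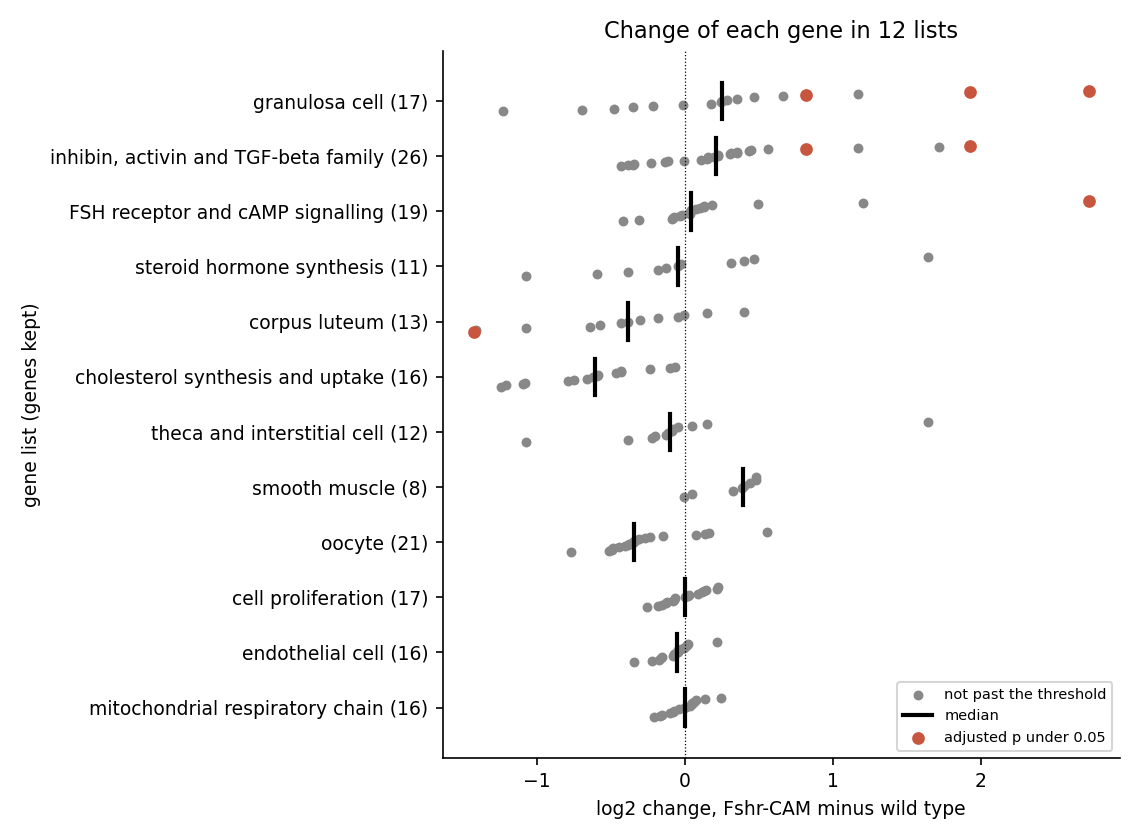
Log2 change (Fshr-CAM minus wild type) of each kept gene in 12 of the gene lists, with the number of genes in brackets, called genes in red and a black bar at each list's median. The 16 cholesterol genes all lie left of 0 without a call, while the granulosa and inhibin lists hold the called Inhba and Inha and spread to both sides of 0.

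Sequences upstream of called genes were read because Fshr signals through cyclic AMP and CREB. RefSeq's promoter table for GRCm38.p6 held 14 of the 21 genes that rose and 3 of the 4 that fell, matched by symbol. The 250 bases before each start were searched on both strands for the full cyclic AMP response element TGACGTCA, its half-site TGACG (which lies within the full element and reads on both its strands), the GATA factor motif AGATAA and the NR5A receptor motif AAGGTCA. The upstream windows of 3 genes are printed 5′ to 3′ on the gene's strand, with matches in capitals. Inhba was chosen as the largest rise of the granulosa list after Fshr, the altered gene itself. Ppp1r15a was the only one with the full element among the called genes held in the promoter table, and Adcyap1 was the largest fall. Both were chosen after the matches were seen.
Inhba, chr13:16011601-16011850, plus strand: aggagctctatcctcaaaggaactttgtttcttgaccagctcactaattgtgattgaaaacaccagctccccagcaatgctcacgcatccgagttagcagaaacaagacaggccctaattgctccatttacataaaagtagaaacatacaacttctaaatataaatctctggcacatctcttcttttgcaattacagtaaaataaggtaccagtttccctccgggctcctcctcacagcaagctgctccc
Ppp1r15a, chr7:45526269-45526518, minus strand: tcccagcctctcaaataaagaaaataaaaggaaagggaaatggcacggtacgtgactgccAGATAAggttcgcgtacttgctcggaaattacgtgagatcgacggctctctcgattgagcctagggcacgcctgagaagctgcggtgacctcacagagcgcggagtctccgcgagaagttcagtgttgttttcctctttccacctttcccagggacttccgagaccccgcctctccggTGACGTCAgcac
Adcyap1, chr17:93198767-93199016, plus strand: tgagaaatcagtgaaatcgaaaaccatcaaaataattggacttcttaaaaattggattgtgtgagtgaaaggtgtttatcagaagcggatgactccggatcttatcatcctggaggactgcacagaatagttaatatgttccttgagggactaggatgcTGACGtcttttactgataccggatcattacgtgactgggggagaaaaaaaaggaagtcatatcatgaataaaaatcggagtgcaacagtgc
In Ppp1r15a the full element begins 12 bases before the start and AGATAA 190 bases before it, and in Adcyap1 a half-site begins 91 bases before the first of its starts. The Inhba window holds none of the 4 motifs. Over all 32851 promoters of the table, 1.5% held the full element, 17.8% the half-site, 10.0% AGATAA and 4.1% AAGGTCA. Over the 11780 promoters of the kept genes the shares were 2.4%, 25.0%, 5.9% and 2.9%. Among the 15 promoters of genes that rose, 1 held the full element, 2 the half-site, 2 AGATAA and 1 AAGGTCA. Among the 5 promoters of genes that fell, 2 held the half-site, both of them starts of Adcyap1. A match is a description of the letters in this window, and no binding was measured.

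The same Fshr-CAM comparison in the absence of Lhr, Fshr-CAM/Lhr-null (5 arrays) minus Lhr-null (3 arrays), came from the same 16-array fit. Over all genes it had 6 higher (0.0526%) and 40 lower (0.351%), and none of the 25 genes was called there. The lower genes included the cilia genes Dnali1 and Rsph1 and the spermatid genes Prm1 and Tnp1, which were high on the Lhr-null arrays. In 20 of the 25 the sign was the same, and in all 25 the change was smaller in size, in a set chosen for its size with Lhr present. Fshr itself had means of 9.60 in Lhr-null and 11.16 in Fshr-CAM/Lhr-null (change 1.56 ± 0.36, limma adjusted p = 0.0729; interaction 1.17 ± 0.50, adjusted p = 0.649), with Fshr-CAM/Lhr-null replicate 4 at 9.73 and the other 4 at 11.41 to 11.72. Masp1 and Fam162b changed by 1.11 and 1.42 in the absence of Lhr, beside changes of 1.46 and 2.13 with Lhr (interaction 0.35 ± 0.34 and 0.71 ± 0.52, limma adjusted p = 0.893 and 0.839). Fam162b and Masp1 were not called there (limma adjusted p = 0.12 and 0.0645).

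The difference between the changes was tested as an interaction, the change with Lhr minus the change without. It passed for 10 of 11401 genes (0.0877%; limma), all with values above 0, and 3 of them were among the 25. Enc1 rose by 1.42 with Lhr and read 0.16 without (interaction 1.26 ± 0.21, limma adjusted p = 0.0375). Ddit4 rose by 1.11 with Lhr and read −0.01 without (1.12 ± 0.19, limma adjusted p = 0.0375). Gata6 rose by 0.58 with Lhr and read −0.26 without (0.84 ± 0.15, limma adjusted p = 0.0447). These genes were named for a rise with Lhr, which favours an interaction above 0. A gene high on the Lhr-null arrays alone, such as Dnali1 described below, also has an interaction above 0. The number passing moved from 0 to 56 between fits, and it was 1 with the replicate number as a block.

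Levels in all 4 genotypes, side by side, place the Lhr-null ovaries near Fshr-CAM for several of these genes; wild type enters both comparisons, and the 2 are not independent. Inha had means of 12.89 in wild type, 13.71 in Fshr-CAM, 13.91 in Lhr-null and 13.77 in Fshr-CAM/Lhr-null. Cracd had means of 5.51, 7.77, 7.20 and 7.38 in the same order, and Slc26a7 of 6.01, 7.39, 7.28 and 7.34. The genes that fell showed a like order, with Adcyap1 at 7.24, 4.62, 4.71 and 4.67 and Pcsk5 at 6.90, 5.47, 4.76 and 4.74. Adcyap1 was undetected on the Fshr-CAM arrays, at 4.43 to 4.82, and Pcsk5 read 4.42 to 4.86 in the genotypes without Lhr. A signal near background cannot fall much further, which limits both this likeness and the changes of these genes without Lhr. Rhox8 and Inhba had their highest mean in Fshr-CAM, at 6.02, 9.26, 7.10 and 8.51 for Rhox8 and 11.69, 13.62, 12.55 and 13.26 for Inhba.

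**Figure D5:**
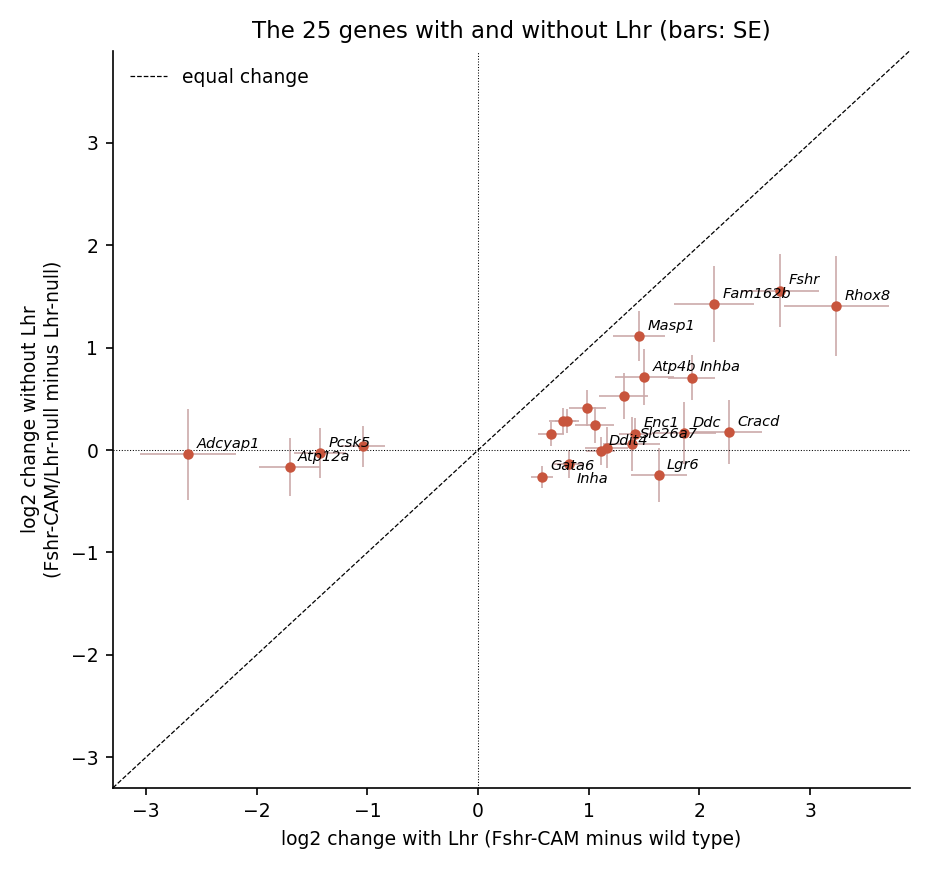
Log2 change of the 25 genes with Lhr present (x axis, Fshr-CAM minus wild type) and without it (y axis, Fshr-CAM/Lhr-null minus Lhr-null), with bars for the SE of each and a dashed line of equal change. All 25 points lie closer to 0 on the y axis than on the x axis, with Masp1 and Fam162b nearest the dashed line among the genes that changed over 2-fold.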

How the data were processed

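The submitters' processing notes name GenomeStudio 1.7.0 for the non-normalised table that the authors deposited. Per the file headers it gives an average signal intensity, a detection p-value and the number of beads for each probe and array. A deposited table of quantile-normalised intensity, identical to the deposited series matrix (largest difference 0), served as an alternative.

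From the non-normalised intensity, log2 values were computed here with neqc of limma 3.58.1 (R 4.3.3; background from the detection p-values, offset 16, quantile normalisation). Of 45281 probes, 34885 had 1 symbol in the platform annotation, 18 several and 10378 none, and the latter 2 kinds were left out; 34807 matched a RefSeq gene identifier, and 0 symbols were updated. Probes had to reach a detection p under 0.05 in 4 or more of the 8 arrays compared (18028 probes), and a gene is its brightest kept probe (11401 genes). The Lhr transcript was not analysed here, since 0 probes are named Lhcgr.

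limma (lmFit, eBayes with an intensity trend) fitted 1 mean per genotype to 16 arrays, without Lhr-null replicate 1, on which an earlier analysis had found pituitary genes. Adjusted p-values are Benjamini-Hochberg over all 11401 genes. On simulated data of 11401 genes for Fshr-CAM minus wild type, 68 of 100 genes changed by 1 (log2) and 95 of 100 changed by 2 were recovered, with 10 false calls. The simulated noise was normal and independent between genes and arrays, without outlying arrays, so these figures are not error rates of the real comparison. Named were Fshr, the 15 largest rises and falls past the threshold with arrays that do not overlap (if under 12, the next by p up to 12, as values) and up to 3 called members of each list, or else the 2 of smallest p; clone names were left out. Other genes described from the lists, and those marked so, were chosen after their values were seen. The genes, 39 lists and tests were chosen with earlier results of these data known. Alternatives changed the normalisation, filter, probe rule, weights, arrays and replicate block; 2 choices of arrays were added after the data were seen. Plots used matplotlib 3.10.9, with tables read by pandas 2.3.3.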

Additional observations from a re-analysis of the deposited data

Results flagged for a closer look

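Single arrays stood far from the other 3 of their genotype in 19 of 246 sets of 4 examined with Dixon's test, for the named genes and the list means; chance flags about 1 in 20 such sets. On Fshr-CAM replicate 1, Lgr6 (8.27), Lpcat3 (10.89) and Notch1 (8.74) were high, and Wnt6 (7.23), Mcm2 (7.56) and the Sertoli cell list mean (7.92) were low. On Fshr-CAM replicate 3, Hey2 (8.06) was high, and Dgat1 (6.87) and Tgfbi (10.21) were low. On Fshr-CAM replicate 4, Prm1 (7.99) was high, and Star (7.97) and Lep (5.37) were low. On wild type replicate 4, Stard4 (8.53), Dgat1 (6.68), Uqcrfs1 (4.52) and the interferon response list mean (7) were low. On wild type replicate 2, Alas2 (4.69) and the list mean of PI3K, mTOR and energy stress (8.41) were low, and on wild type replicate 3 Ccdc3 (11.05) was high. Lgr6 and Ccdc3 are the called genes among these: without Fshr-CAM replicate 1 Lgr6 changed by 1.38 (limma adjusted p = 0.0212), and without wild type replicate 3 Ccdc3 changed by 1.15 (limma adjusted p = 0.0182).

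The Fshr-CAM change differed between ovaries with and without Lhr, by the interaction test, for 4 named genes. The interaction was 1.26 for Enc1, 1.12 for Ddit4 and 0.84 for Gata6, all described above. It was 3.77 ± 0.48 for Dnali1, a dynein chain of cilia (limma adjusted p = 0.00721). Dnali1 read 4.54 to 5.11 in wild type and 4.84 to 6.03 in Fshr-CAM. It read 8.89, 7.64 and 9.26 on the Lhr-null arrays and 5.06 to 6.13 on the Fshr-CAM/Lhr-null arrays.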

How the results depend on the processing

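Relative to 21 higher and 4 lower genes, the authors' quantile-normalised values and the series matrix gave 21 and 4, no detection filter 21 and 4, and the strict filter 22 and 4. Median-centred signals gave 16 and 3, and the mean of a gene's probes 17 and 4, without Pcsk5 (−0.55), Ogn, Masp1, Slc26a7 and Gata6 of the 25. Array quality weights gave 40 and 20, 15 arrays (Fshr-CAM/Lhr-null replicate 4 left out too) 42 and 5, and 14 arrays (Lhr-null replicate 2 left out too) 43 and 6. Fewer genes passed with only the 8 arrays compared (5 and 0), with all 17 arrays (3 and 3) and without the 3 arrays of high Prm1 (4 and 3); the causes were not tested. Leaving out each array in turn gave 8 to 26 higher and 0 to 18 lower: 8 and 0 without Fshr-CAM replicate 3, 13 and 2 without wild type replicate 1, 18 lower without wild type replicate 4, and 8 lower without Fshr-CAM replicate 1. Without wild type replicate 2 or 3, 2 genes were lower. Same-numbered arrays of the 2 genotypes deviated together at r of −0.02, 0.19, −0.06 and 0.07, so the numbers were not taken as pairs; the replicate block gave 27 and 3, with 23 of the 25 genes also called. The interaction passed for 10 genes, and for 38 without a filter, 24 with detection on 4 of the 16 arrays, 0 with the strict filter, 56 with quality weights, 1 with the replicate block, 3 with 17 arrays, 50 with 15, 35 with 14, 0 without the 3 arrays of high Prm1, and 2 to 7 leaving out 1 array. Wherever they were tested, the 25 genes kept their sign in the settings listed here. Their arrays do not overlap between the genotypes and the settings share arrays, so a reversed sign was unlikely from the start. Lgr5, not called, turned to 0.12 under quality weights, and Tnp1 to 0.00 without wild type replicate 3 (range −0.48 to 0.00 leaving out 1 array). Adcyap1 was not kept when a wild type array was left out, since its 4 detections were all there, and had an adjusted p of 0.0562 without Fshr-CAM replicate 3. Chip as a block was not run, since the headers give no chip. Arrays per genotype limit the precision, and genes near background have understated folds.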

Other observations

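The largest change of all genes was not a call. Rln1, which encodes the hormone relaxin, read 4.51 to 5.03 on the wild type arrays and 14.78, 6.12, 9.49 and 4.42 on the Fshr-CAM arrays, a change of 3.94 ± 1.43 with a limma adjusted p of 0.599. Ctsc, a lysosomal protease, had the largest change below 0, at −2.82 ± 1.11 with a limma adjusted p of 0.626. Comp, a cartilage matrix protein, was higher on every Fshr-CAM array, and its change of 2.47 ± 0.57 did not pass (limma adjusted p = 0.12). Some genes varied more between arrays of 1 genotype than between genotypes. Me1, the cytosolic malic enzyme, read 10.64 to 12.25 on 6 of the 8 arrays, 5.17 on wild type replicate 3 and 4.56 on Fshr-CAM replicate 4. Sfrp4, a secreted Wnt antagonist on the luteal list, ran from 6.27 to 10.58 in wild type and from 4.99 to 11.94 in Fshr-CAM. These genes were chosen after their values were seen.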
